A study of Mus musculus with 8 samples.

Results

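The chains described here are the integrins and the laminins, 36 genes of mouse listed by gene family, with earlier results of these data known. A gene was taken in when the platform annotation gave its symbol, and no other, to a probe set. This held for 34 of the 36 listed genes, 24 integrin chains and 10 laminin chains, among the 18193 genes of the array, and for 73 of its 34945 probe sets with a single symbol. Itga11 and Itgad had no such probe set and were not analysed here. The chains were put into 4 groups by role: 5 epithelial integrins, 7 leukocyte integrins, 12 other integrins that bind matrix, and 10 laminins.

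Integrins are receptors in the cell membrane made of an alpha and a beta chain, and the pair decides which ligand is bound. The pairs of Itgb1 and of Itgav bind matrix proteins such as fibronectin, collagen, vitronectin and laminin, Itga6 with Itgb4 anchors epithelial cells to the basement membrane in hemidesmosomes, and the Itgb2 pairs are found on leukocytes, where they bind ICAMs and complement fragments. Laminins are trimers of an alpha, a beta and a gamma chain that form the basement membrane network to which epithelial, endothelial, muscle and Schwann cells attach. In the mammary gland the laminin receptors of basal epithelial cells are a standard marker of that layer, and Itgb3 is widely studied in osteoclasts, platelets and tumours that grow in bone.

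The samples were 8 arrays of Balb/c mice with tumours of 4T1.2, a mammary carcinoma line of mouse from which bone metastases arise: 4 of cells from the primary tumour in the mammary gland and 4 of cells from spine metastases, with both tumours of a number taken from 1 of 4 mice. No treatment, genotype or age was given for either group, and 4T1.2 is 1 tumour line. Per the labels the tumour epithelial cells were isolated before RNA extraction, and no sort or gate is named in them. The question was how tumour cells growing in bone differ from those of the matched primary tumour.

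Of 10 markers of the labelled epithelial cells, 2 were called lower in metastases, Krt19 and Cldn4, and 8 were not called. At an unadjusted p under 0.05 (limma) 5 of the 10 were lower and 0 higher, with a median log2 fold of -0.88. The summed log2 signal of these 10, which follows the bright keratins Krt8 and Krt18, was 13.76 to 13.85 on the primary arrays and 10.07, 13.04, 11.07 and 13.68 on metastasis arrays 1 to 4. Krt8 itself had 7.34, 12.39, 9.80 and 12.97 there, low on arrays 1 and 3, whereas Epcam had 8.34, 8.45, 8.65 and 9.35 and Cdh1 7.0, 7.89, 6.96 and 5.74, which do not set these arrays apart. Of 7 macrophage markers 6 were called lower in metastases (summed log2 signal 14.70 to 15.48 in primary tumours, 12.44 to 13.81 in metastases). Of 8 neutrophil markers 6 were called higher, as were 5 of 5 markers of B lineage cells. Of 4 nerve and Schwann markers 2 were called higher, of 7 cartilage markers 3, and of 5 endothelial markers 0 (limma, also 0 at an unadjusted p under 0.05). The endothelial markers Pecam1, Emcn and Tek had means under the mean array median in both groups (5.17 for primary and 5.31 for metastasis arrays). Their missing calls therefore do not show that endothelial signal was unchanged. Between the 3' and the 5' control probe set of actin the log2 signal dropped by 1.08 to 1.9 on primary arrays and by 4.55 to 6.18 on metastasis arrays, and that of Gapdh by 1.55 to 2.59 and by 4.62 to 6.08, an exact two-sided permutation p of 0.0286 each (adjusted p = 0.0286 over both, the smallest that 4 against 4 arrays allow). With the arrays exchanged only within each mouse, the exact p was 0.125 for each (adjusted p = 0.125), the smallest that 4 mice allow. Fewer cells of a type and less RNA per cell cannot be told apart in such samples, and the part of cell makeup and of the control drop in the results below was not tested.

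**Figure D1:**
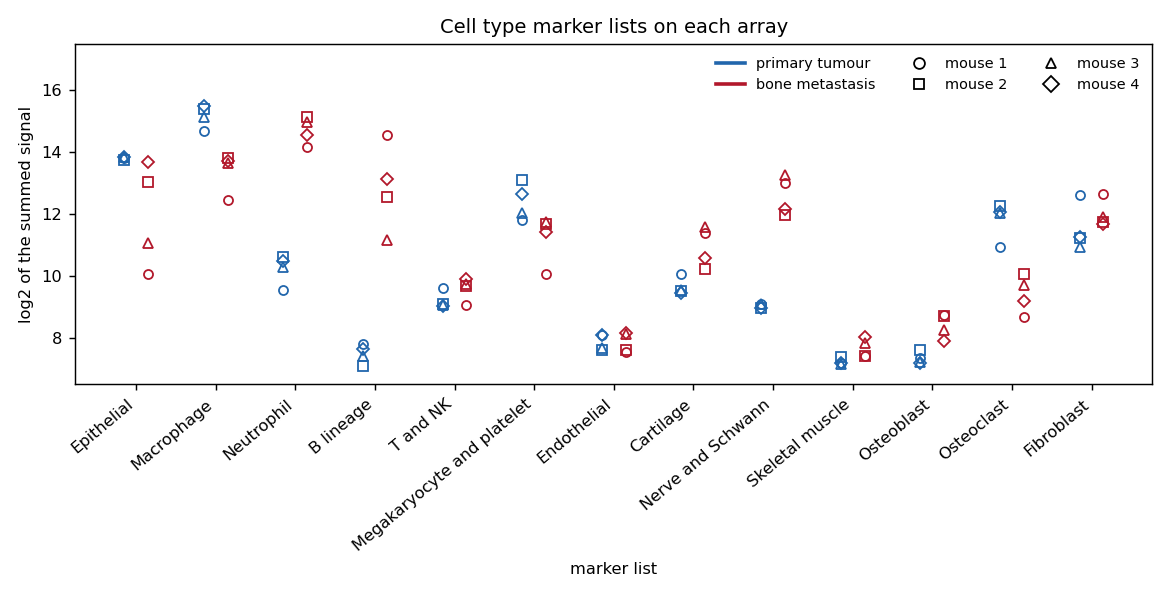
Log2 of the summed signal of each marker list (y axis) on the 8 arrays, by list (x axis). Points are single arrays, the colour gives the group and the shape the mouse. Macrophage markers lie at 14.70 to 15.48 in primary tumours and at 12.44 to 13.81 in metastases, neutrophil and B lineage markers are higher in metastases, and the epithelial sum, which follows Krt8 and Krt18, is low on metastasis arrays 1 and 3.

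Of the 34 chains 11 (32.4%) were called, 8 as lower in bone metastases and 3 as higher, by limma with an adjusted p under 0.05 over all 18193 genes. Over all genes 21.8% were called, 12.1% as lower and 9.72% as higher, against 23.5% and 8.82% of these chains, so the share of rises was near that of all genes and the share of falls was above it. The chains that fell were Itga6, Itgb4, Itgam, Itgax, Itga9, Itgb1, Lama5 and Lamc1, in all 4 mice and by more than 2-fold each. Over all genes 9.88% were called lower by at least 2-fold. The chains that rose were Itgb3, Itga7 and Lama2. Of these Itgb3 rose by more than 2-fold, against 6.04% of all genes called higher by at least 2-fold. The median log2 fold, metastasis minus primary, was -0.20 over the 34 chains and 0.09 over all genes. In 9 of the 34 chains (26.5%) the groups did not overlap, against 29.3% of all genes. Bright genes were called more often: among genes whose mean signal was above the median over genes, 23.5% were called lower and 12.5% higher, against 10 and 2 of the 23 chains among them.

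The calls were not equally stable. Itga6, Itga9 and Lama5 passed the threshold in all 24 alternative settings. These include leaving out single arrays, single mice, and metastasis arrays 1 and 3 or 3 and 4. Itgb4 failed in 1 of them, Itgb1 in 3 and Lamc1 in 4, whereas Itgb3, Itga7, Lama2, Itgam and Itgax failed in 9 to 13. The count of chains called lower went from 8 to 3 without mouse 3 and to 5 without mouse 1 or mouse 4, and that of chains called higher from 3 to 0 without mouse 3, mouse 4 or primary array 2, 3 or 4 and to 1 without mouse 1, mouse 2 or metastasis array 3. With all arrays scaled to one 75th percentile, the median over all genes went from 0.09 to 0.30 and the share of lower calls among all calls from 55.5% to 44.3%. Under it the chains were 8 lower and 4 higher. After quantile normalization 6 were lower and 2 higher, with Itgam, Itgb1 and Lama2 lost. When limma weighted the arrays, 8 were lower and 4 higher, with Itgam and Itgax lost and Itga3, Itgb8 and Lamb1 gained. With the mouse as a block 9 were lower and 3 higher.

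**Figure D2:**
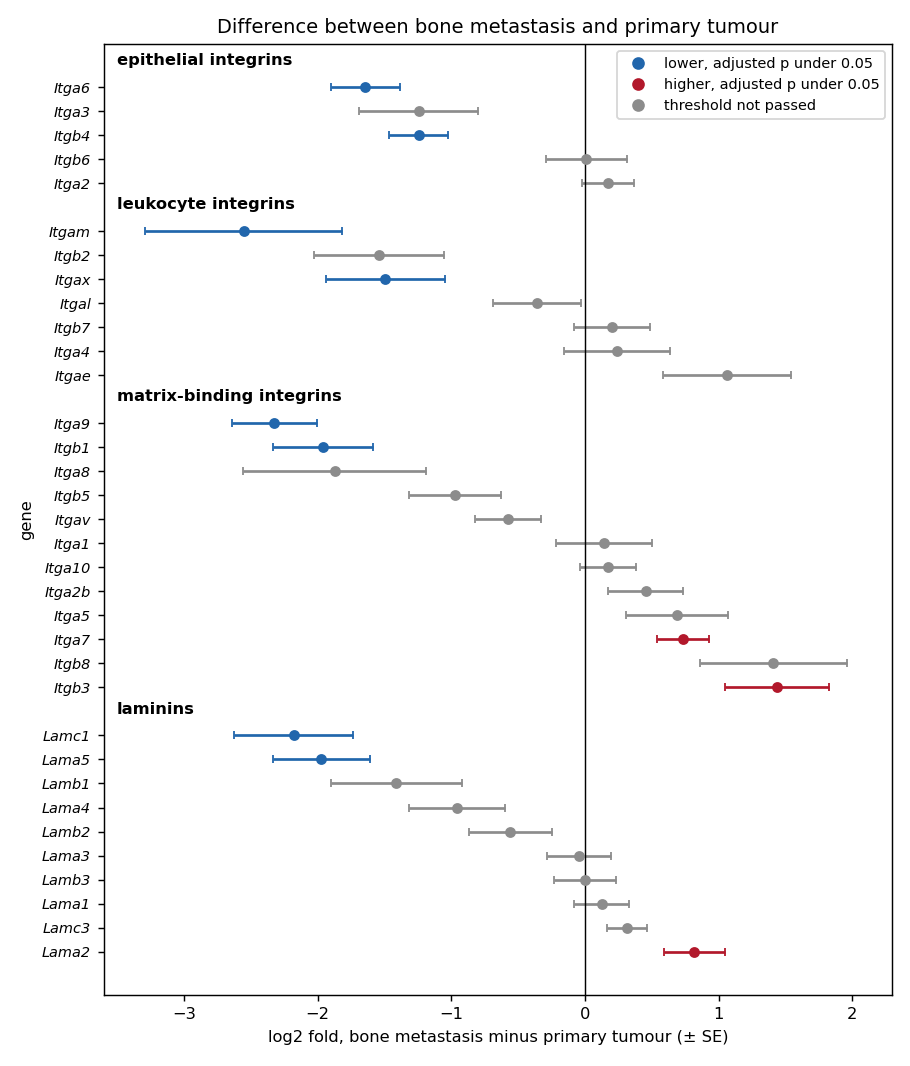
Log2 fold of each chain (x axis, bone metastasis minus primary tumour, with its standard error from limma), by gene and group (y axis). Blue points passed the threshold as lower, red as higher and grey did not pass. The called falls run from -1.24 (Itgb4) to -2.55 (Itgam), and the called rises from 0.73 (Itga7) to 1.44 (Itgb3).

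Among the epithelial integrins the hemidesmosome pair fell. Itga6, the laminin-binding alpha chain that pairs with Itgb4 or Itgb1, had log2 signals of 9.91, 9.20, 9.09 and 8.83 in the primary tumours of mice 1 to 4 and of 7.69, 7.65, 7.20 and 7.92 in their metastases. Every metastasis array lay below every primary array. The difference was -1.64 (log2 fold, standard error, SE, 0.26, or 3.12-fold, adjusted p = 0.00371 by limma), and its second probe set gave -1.98 (SE 0.43). Itgb4, the beta chain whose long cytoplasmic tail binds plectin and keratin filaments, had 7.90, 7.07, 7.57 and 7.62 in primary tumours and 5.91, 6.51, 6.24 and 6.52 in metastases. Its groups did not overlap either, and mouse 1 had both the highest primary and the lowest metastasis value. The log2 fold of Itgb4 was -1.24 (SE 0.22, adjusted p = 0.00606), and the call was lost without mouse 3 (adjusted p = 0.0584).

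Both falls were still called without metastasis arrays 1 and 3, the arrays with the lowest Krt8 and Krt18 signal. The log2 fold was then -1.47 for Itga6 (adjusted p = 0.0274) and -1.02 for Itgb4 (adjusted p = 0.0384). The metastasis arrays kept, 2 and 4, still had Krt19 at 5.06 and 5.57, against 6.68 to 9.38 in primary tumours. Their actin control drop was 4.55 and 6.18, against 1.08 to 1.9. The part of cell makeup and of the control drop in both falls was not tested by this. Plec, the plectin gene, was called higher with overlap between the groups (0.90, SE 0.27, adjusted p = 0.0466), unlike Itgb4.

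Itga3, the other epithelial laminin receptor chain, which pairs with Itgb1, had 9.90, 9.62, 9.64 and 9.20 in primary tumours and 6.97, 8.55, 8.53 and 9.33 in metastases. Metastasis array 1 was the lowest, and array 4 overlapped with the primary tumours. The log2 fold was -1.24 (SE 0.45) and did not pass the threshold (adjusted p = 0.0791). A second probe set of Itga3 was lower without overlap (-1.13, SE 0.27, adjusted p = 0.0213 over all probe sets), and the third lay at -0.14 (SE 0.13). Of the remaining epithelial chains, the collagen receptor chain Itga2 lay between 5.43 and 5.46 on the primary arrays and between 5.19 and 6.04 on the metastasis arrays. Itgb6, which with Itgav activates latent TGF-beta, had means under those of the array medians, which were 5.17 for primary and 5.31 for metastasis arrays. Neither passed the threshold.

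**Figure D3:**
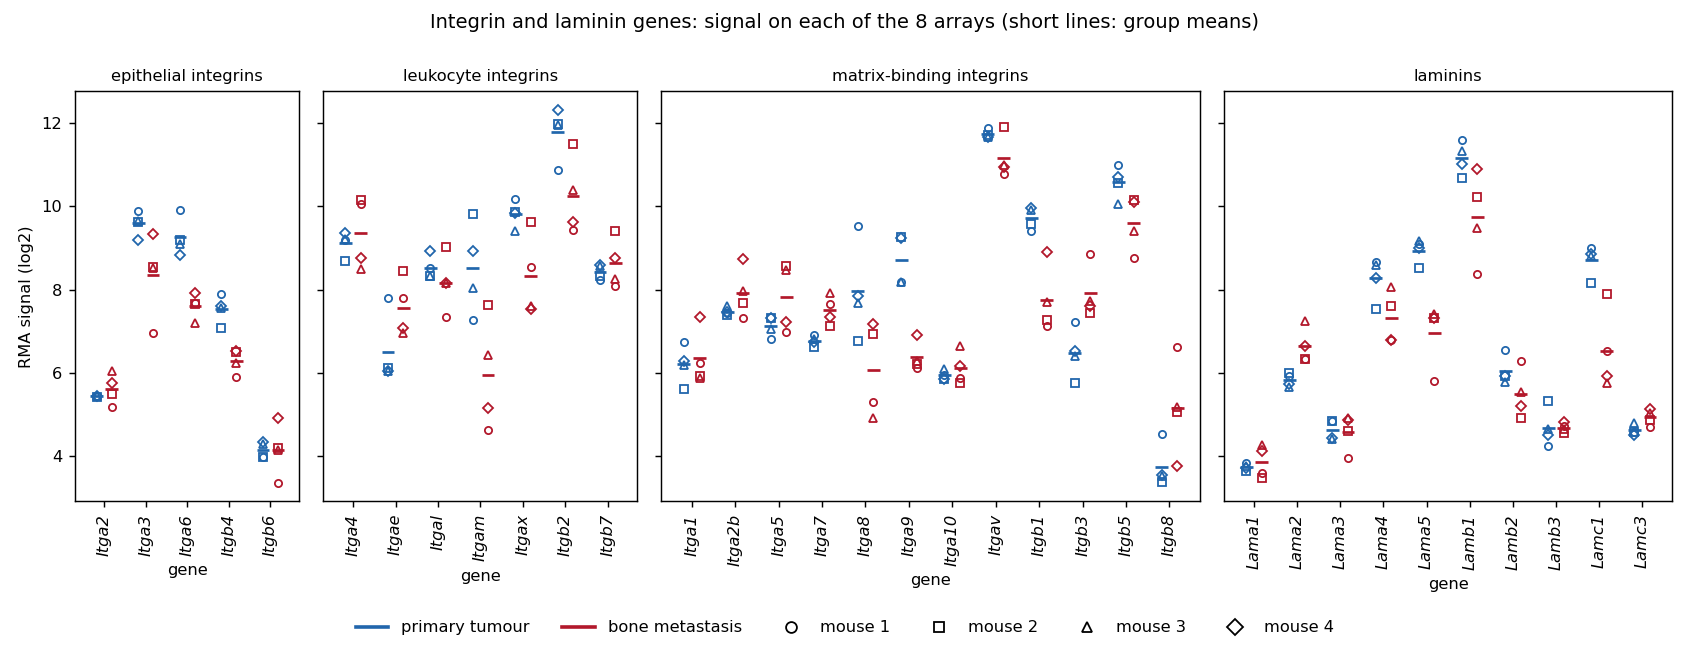
RMA signal (y axis, log2) of the brightest probe set of each of the 34 chains (x axis) on the 8 arrays, in 4 panels by role. Points are single arrays, the colour gives the group, the shape the mouse, and short lines the group means. Itga6, Itgb4, Itga9, Itgb1, Lama5 and Lamc1 are lower in metastases without overlap, and Itga7, Itgb3 and Lama2 higher without overlap.

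Among the laminins the alpha and gamma chain of the main epithelial and vascular trimer, Lama5 with Lamb1 and Lamc1, fell together. Lama5 had 9.09, 8.51, 9.16 and 9.0 in primary tumours and 5.80, 7.31, 7.42 and 7.33 in metastases. The groups did not overlap, and metastasis array 1 lay apart below the other 3. Lama5 fell by 1.97 on the log2 scale (SE 0.37, 3.92-fold, adjusted p = 0.00715), and without metastasis arrays 1 and 3 its log2 fold was -1.62 (adjusted p = 0.00811). Lamc1, the gamma chain shared by most laminins, had 9.0, 8.17, 8.80 and 8.86 in primary tumours and 6.52, 7.89, 5.77 and 5.94 in metastases. All metastasis arrays were below the primary ones, array 2 by little. The log2 fold of Lamc1 was -2.18 (SE 0.45, adjusted p = 0.0105), while its dimmer probe set overlapped and was not called (-0.55, SE 0.24, adjusted p = 0.148 over all probe sets). On the brighter one the call was lost without mouse 1 (adjusted p = 0.0513), mouse 3 (0.0815) or mouse 4 (0.0772) and without metastasis arrays 1 and 3 (0.0695).

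Lamb1, the beta chain of the same trimer, had 11.58, 10.69, 11.33 and 11.02 in primary tumours and 8.38, 10.22, 9.48 and 10.89 in metastases. It was lower in all 4 mice, with overlap between the groups through metastasis array 4. The log2 fold on this probe set was -1.41 (SE 0.49) and did not pass (adjusted p = 0.0724), whereas 2 of its 3 other probe sets did, at -2.25 (SE 0.49, adjusted p = 0.0154) and -1.25 (SE 0.32, adjusted p = 0.026). Without metastasis arrays 1 and 3 the fold of Lamb1 was -0.60 (SE 0.31).

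Lama2, the alpha chain of the laminin around muscle fibres and Schwann cells, went the other way. It had 5.92, 6.01, 5.66 and 5.73 in primary tumours and 6.34, 6.34, 7.26 and 6.64 in metastases, where every array was above the primary arrays. Lama2 rose by 0.82 on the log2 scale (SE 0.23, 1.76-fold, adjusted p = 0.0331). With the mouse as a block it did not pass (adjusted p = 0.0804), nor without any 1 of the primary arrays or metastasis array 4 (adjusted p 0.0578 to 0.0971). Of the 4 nerve and Schwann markers, the neurofilament genes Nefl (8.05, SE 0.31) and Nefm (5.45, SE 0.51) were called higher and carry the summed signal (11.96 to 13.25 in metastases, 8.97 to 9.08 in primary tumours, log2). The glial markers Sox10 (1.15, SE 0.36, adjusted p = 0.0526) and Mbp (0.08, SE 0.28, adjusted p = 0.855) were not called. The summed log2 signal of 6 skeletal muscle markers was 7.40 to 8.02 in metastases and 7.14 to 7.36 in primary tumours. Most of these markers had means under the array medians in both groups.

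The other laminin chains did not pass. Lama4, of vessel and mesenchymal basement membranes, had 8.67, 7.54, 8.60 and 8.28 in primary tumours and 6.79, 7.61, 8.06 and 6.80 in metastases, with overlap (-0.96, SE 0.36, adjusted p = 0.0903). Lamb2, the beta chain of neuromuscular and kidney laminins, was lower in all 4 mice with overlap (-0.56, SE 0.31, adjusted p = 0.228). Lama3 and Lamb3, chains of the laminin that hemidesmosomes bind, and Lama1 and Lamc3 had group means under the mean array median in both groups, and Lamb3 reached 5.34 on primary array 2. For these dim chains a log2 fold near 0 is not evidence that the transcript was the same in both tissues.

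The promoters of Itgb1 and Lama5 are shown because these chains, a laminin receptor and its ligand, fell together. They are the 250 bases before the RefSeq start, in build GRCm38.p6, at chr8:128685404-128685653 (plus strand) for Itgb1 and chr2:180225860-180226109 (minus strand) for Lama5, written 5′ to 3′. Capitals mark GGGCGG, the GC box read by Sp factors, and GAGGAA, a core read by Ets factors such as PU.1, on either strand.
Itgb1: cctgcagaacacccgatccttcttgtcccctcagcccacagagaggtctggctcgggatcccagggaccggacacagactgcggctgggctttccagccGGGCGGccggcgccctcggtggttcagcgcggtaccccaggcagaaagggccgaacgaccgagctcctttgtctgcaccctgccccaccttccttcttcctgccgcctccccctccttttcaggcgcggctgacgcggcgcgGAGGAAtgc
Lama5: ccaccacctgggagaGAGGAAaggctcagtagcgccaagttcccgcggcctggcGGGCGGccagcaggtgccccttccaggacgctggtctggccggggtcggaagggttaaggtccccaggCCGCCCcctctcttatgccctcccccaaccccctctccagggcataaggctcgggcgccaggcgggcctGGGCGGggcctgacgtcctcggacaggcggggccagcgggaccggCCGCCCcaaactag
The window of Lama5 held GGGCGG 4 times and that of Itgb1 1 time, and each held GAGGAA 1 time. Of the 32851 windows of this length in the table, 32.7% held GGGCGG, 23.3% held GAGGAA and 12.4% held TATAAA. Of 26 windows of 23 listed chains, 9 held GGGCGG, 13 held GAGGAA and 0 held TATAAA. The motifs do not overlap one another in the windows printed, and a match is a description of the letters alone.

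Among the leukocyte integrins the myeloid chains were lower. Itgam, which encodes CD11b of neutrophils, monocytes and macrophages, had 7.28, 9.81, 8.03 and 8.94 in primary tumours and 4.63, 7.63, 6.43 and 5.15 in metastases. It was lower in all 4 mice, but metastasis array 2 lay above primary array 1. Itgam fell by 2.55 on the log2 scale (SE 0.73, 5.87-fold, adjusted p = 0.0385). Itgax, which encodes CD11c of dendritic cells and many macrophages, had 10.18, 9.86, 9.42 and 9.83 in primary tumours and 8.55, 9.63, 7.61 and 7.53 in metastases. Metastasis array 2 reached into the primary range, and the other 3 lay below it. The log2 fold of Itgax was -1.49 (SE 0.45, adjusted p = 0.0439).

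Itgb2, the CD18 chain without which neither reaches the surface, had 10.86, 11.98, 11.96 and 12.31 in primary tumours and 9.44, 11.49, 10.40 and 9.62 in metastases. It was lower in all 4 mice with overlap by array 2. Its log2 fold of -1.54 (SE 0.49) lay just beyond the threshold (adjusted p = 0.053) and passed with the mouse as a block (adjusted p = 0.035). The fall of Itgam was not called without primary array 2, 3 or 4 or metastasis array 1, 3 or 4 (adjusted p 0.066 to 0.104). That of Itgax was not called without any 1 of the arrays other than metastasis array 2 (adjusted p 0.0543 to 0.107).

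Itgam and Itgb2 are expressed by both macrophages and neutrophils, whose markers differed in opposite directions. The macrophage gene Adgre1, which encodes F4/80, was lower by 2.36 on the log2 scale (SE 0.26), and the neutrophil granule gene Ngp was higher by 6.33 (SE 0.39). Itgal, the CD11a chain of lymphocytes and other leukocytes, overlapped between groups (8.33 to 8.94 against 7.34 to 9.02, log2 fold -0.36, SE 0.33, adjusted p = 0.459).

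Itgam and Itgax are next to each other, followed by Itgad, among the protein-coding genes of chromosome 7 in GRCm38.p6. Their promoters are shown because these neighbouring chains fell together. They lie at chr7:128062390-128062639 for Itgam and chr7:128129300-128129549 for Itgax, both on the plus strand, with the same motifs in capitals.
Itgam: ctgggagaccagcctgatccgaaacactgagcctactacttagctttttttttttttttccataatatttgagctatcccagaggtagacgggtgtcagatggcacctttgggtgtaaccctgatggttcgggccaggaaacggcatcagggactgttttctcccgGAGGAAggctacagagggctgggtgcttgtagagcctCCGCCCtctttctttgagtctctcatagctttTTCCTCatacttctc
Itgax: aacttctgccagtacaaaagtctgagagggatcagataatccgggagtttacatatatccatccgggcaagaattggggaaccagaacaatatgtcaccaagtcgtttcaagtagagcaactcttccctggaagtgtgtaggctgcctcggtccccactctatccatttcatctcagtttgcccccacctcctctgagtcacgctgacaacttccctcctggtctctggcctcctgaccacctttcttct
The window of Itgam held GAGGAA 2 times, 1 of them on the other strand 15 bases before the start, and GGGCGG 1 time. That of Itgax held none of the 3 motifs, which says only that these letters are not in this window.

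The integrin chains of lymphocyte homing were not called on their brightest probe set. Itga4, which pairs with Itgb1 or Itgb7 and binds Vcam1 and fibronectin, had 9.19, 8.69, 9.22 and 9.36 in primary tumours and 10.06, 10.14, 8.49 and 8.75 in metastases, so that metastasis arrays 1 and 2 were above and arrays 3 and 4 within or below the primary range. Its log2 fold was 0.24 (SE 0.40, adjusted p = 0.678). Without metastasis arrays 3 and 4 it was 0.98 and called (adjusted p = 0.0207, limma). A dimmer probe set of Itga4 was higher without overlap, from 5.89 to 6.30 in primary tumours and from 6.46 to 7.90 in metastases (1.19, SE 0.29, adjusted p = 0.0229 over all probe sets), and the other 3, all with means under 5.30, lay between 0.16 and 0.26. Itgb7, of gut-homing lymphocytes and mast cells, had a log2 fold of 0.20 (SE 0.29). Itgae, the CD103 chain that binds Cdh1, had 1.06 (SE 0.48, adjusted p = 0.145) on 1 probe set and -0.27 (SE 0.45) on the other, and on both its highest primary value came from mouse 1.

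Among the integrins that bind other matrix proteins, Itga9 and Itgb1, which pair with each other, fell. Itga9, a receptor chain for tenascin, osteopontin and Vcam1, had 8.19, 9.26, 8.19 and 9.23 in primary tumours and 6.13, 6.21, 6.30 and 6.92 in metastases. The groups lay more than 1 log2 unit apart. Itga9 fell by 2.32 on the log2 scale (SE 0.32, 5.01-fold, adjusted p = 0.00217), and its other probe sets gave -2.80 (SE 0.47, adjusted p = 0.00533) and -1.0 (SE 0.39, adjusted p = 0.109). Without metastasis arrays 1 and 3 the fold of Itga9 was -2.15 (adjusted p = 0.022).

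Itgb1, the beta chain shared by most matrix receptors, had 9.42, 9.57, 9.92 and 9.95 in primary tumours and 7.14, 7.27, 7.70 and 8.91 in metastases. Every metastasis array was below the primary arrays, array 4 by the least. The log2 fold was -1.96 (SE 0.37, 3.89-fold, adjusted p = 0.00783). The call was lost without mouse 3 (adjusted p = 0.0722), without metastasis arrays 1 and 3 (0.0559) and after quantile normalization (0.0509). Of its 6 probe sets 3 were called lower, at -3.56, -1.96 and -0.99, and the other 3, with means between 3.25 and 3.53 in both groups, were not called.

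Itgb3, the beta chain of the vitronectin receptor with Itgav and of the platelet fibrinogen receptor with Itga2b, rose. It had 7.22, 5.75, 6.40 and 6.53 in primary tumours and 8.86, 7.44, 7.74 and 7.60 in metastases. All metastasis arrays were above all primary arrays, and mouse 1 was highest in both tissues. The rise was 1.44 on the log2 scale (SE 0.39, 2.71-fold, adjusted p = 0.0305), and the other probe set rose too (0.64, SE 0.15, adjusted p = 0.0197 over all probe sets). The call on the brighter probe set was lost without primary array 2, 3 or 4 or metastasis array 3 (adjusted p 0.06 to 0.0805) and without metastasis arrays 1 and 3 (adjusted p = 0.111).

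The partners of Itgb3 were not called on their brightest probe set. Itgav, the alpha chain of the receptors for vitronectin and osteopontin, had 11.88, 11.72, 11.66 and 11.66 in primary tumours and 10.78, 11.91, 10.98 and 10.95 in metastases. Metastasis array 2 was the highest of all 8, and the other 3 were below the primary range. The log2 fold was -0.58 (SE 0.25, adjusted p = 0.129). A second probe set of Itgav had 6.90, 7.75, 7.38 and 7.46 against 4.33, 5.45, 4.43 and 5.03 and fell without overlap (-2.56, SE 0.29, adjusted p = 0.00122 over all probe sets). Itga2b, the platelet and megakaryocyte alpha chain, had 7.39 to 7.60 against 7.31 to 8.74 (0.45, SE 0.28, adjusted p = 0.279). Of 5 megakaryocyte and platelet markers 0 passed (limma, 1 at an unadjusted p under 0.05, as lower), and their sum followed Pf4 (11.73 to 13.06 in primary tumours, 9.81 to 11.62 in metastases, log2 fold -1.25, SE 0.45). Ppbp lay at -1.01 (SE 0.51), and Gp9, Gp6 and Gp5 at 0.33, 0.10 and 0.03. The means of Gp6 and Gp5 lay under the array medians in both groups. Of 4 osteoclast markers Acp5 was called lower (10.70 to 12.16 in primary tumours, 7.97 to 9.66 in metastases), and Ctsk, Calcr and Oscar were not called. Calcr and Oscar also had means under the array medians in both groups. For such dim genes a missing call does not show that the transcript was unchanged.

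Itga7, the laminin-binding alpha chain of skeletal and smooth muscle, rose by a small amount. It had 6.91, 6.62, 6.82 and 6.75 in primary tumours and 7.65, 7.14, 7.92 and 7.34 in metastases, with no overlap. Its log2 fold was 0.73 (SE 0.19, 1.66-fold, adjusted p = 0.0271). It was not called without any 1 of the primary arrays or metastasis array 3 (adjusted p 0.0513 to 0.08). Of the 6 skeletal muscle markers 1 was called higher, Tnnt3. The means of Tnnt3, Myl1, Myh4 and Myh1 lay under the array medians in both groups. Itga7 and Lama2, a muscle laminin receptor chain and ligand chain, each had their highest value on metastasis array 3. The summed log2 signal of the muscle markers was 7.40, 7.40, 7.82 and 8.02 on metastasis arrays 1 to 4. A relation of these rises to muscle content was not tested.

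Itgb5 and Itgb8, further partners of Itgav, did not pass on their brightest probe set. Itgb5, a vitronectin receptor chain, had 10.98, 10.56, 10.05 and 10.71 against 8.75, 10.15, 9.41 and 10.10, lower in all 4 mice with overlap (-0.97, SE 0.34, adjusted p = 0.0748). Of its other 3 probe sets 2 were called lower without overlap (-2.27, SE 0.25, adjusted p = 0.00119, and -1.96, SE 0.26, adjusted p = 0.00214), and 1 lay at -0.41 (SE 0.42). Itgb8, which activates latent TGF-beta, was higher in all 4 mice, with 4.54, 3.38, 3.53 and 3.56 against 6.63, 5.06, 5.19 and 3.76. Its log2 fold of 1.41 (SE 0.55, adjusted p = 0.102) passed with the mouse as a block (adjusted p = 0.0373) and after scaling to the 75th percentile (adjusted p = 0.0315), and its means in both groups lay under the array medians.

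Itga5, the fibronectin receptor chain, had 6.81 to 7.32 in primary tumours and 6.98 to 8.58 in metastases (0.69, SE 0.38, adjusted p = 0.225), and its other probe sets lay from -0.82 to 0.31 with none called. Itga8, a receptor chain for nephronectin, had 9.53, 6.78, 7.67 and 7.85 in primary tumours and 5.31, 6.94, 4.91 and 7.17 in metastases (-1.87, SE 0.68, adjusted p = 0.0836), so that arrays of both groups overlapped. The collagen receptor chains Itga1 and Itga10 overlapped as well, with means between 5.94 and 6.36.

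**Figure D4:**
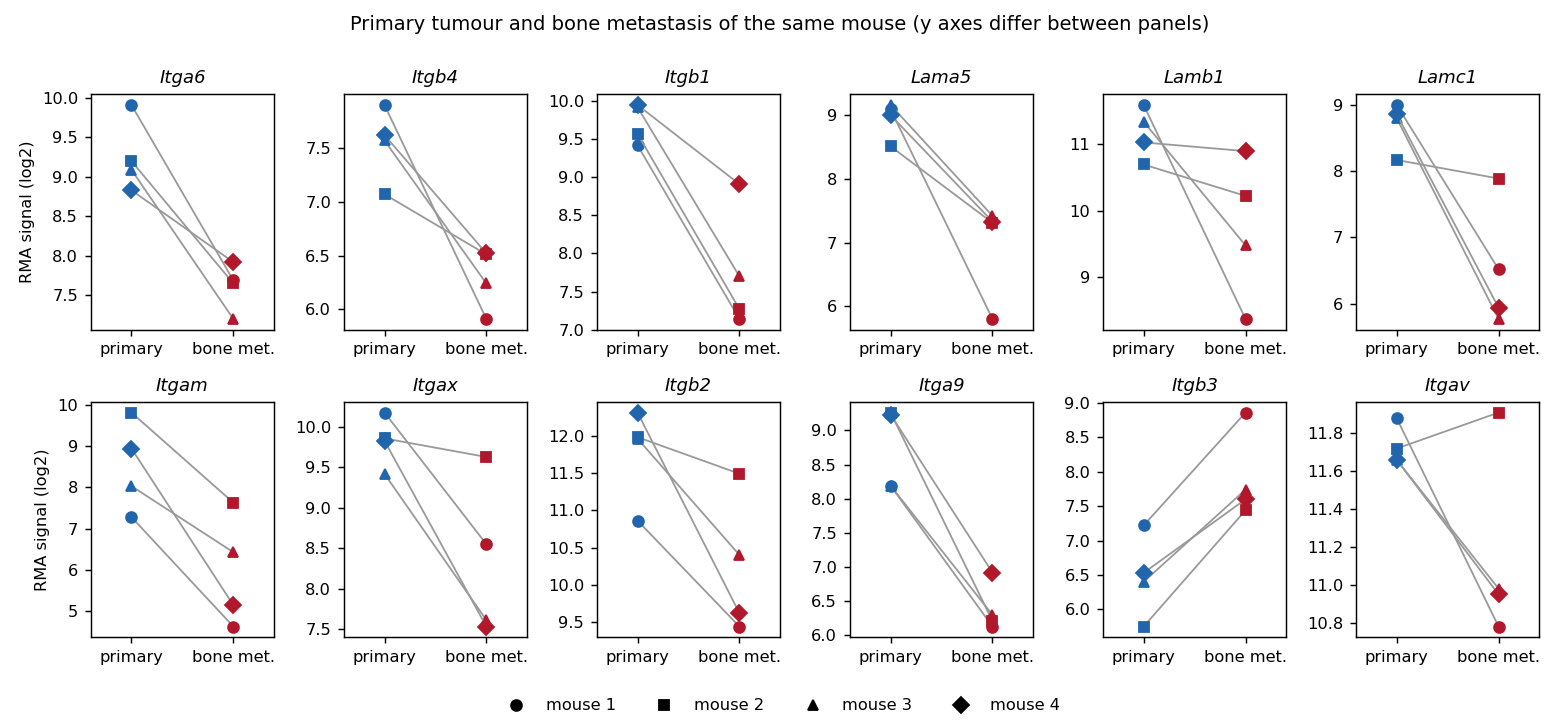
RMA signal (y axis, log2, its range differs between panels) of 12 chains in the primary tumour and the bone metastasis of each mouse (x axis). Lines join the arrays of 1 mouse. All lines of Itga6, Itgb4, Itgb1, Lama5, Lamb1, Lamc1, Itgam, Itgax, Itgb2 and Itga9 fall, all lines of Itgb3 rise, and Itgav rises in mouse 2 and falls in the other 3.

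Over the probe sets, 24 of 73 were called, 19 lower and 5 higher, against 20.6% called, 11.9% lower and 8.72% higher, of all 34945 probe sets. The groups did not overlap in 22 of the 73 (30.1%), against 28.3% of all. The median log2 fold was -0.27 over the 73 and 0.09 over all. Of the 20 chains with more than 1 probe set, 13 had all folds on one side of 0 and 7 on both sides, and 0 had calls in both directions. Of the 23 probe sets of the 11 called chains, 17 were called in the direction of the chain. Itga3, Itga4, Itgav, Itgb5 and Lamb1 did not pass on the brightest probe set but did on another, Itga4 as higher and the other 4 as lower. The folds of a chain differed most between probe sets of Itgb1 (-3.56 to 0.25), Itgav (-2.56 to 0.21) and Lama5 (-2.50 to 0.22). Where a probe set lies in its transcript was not used here, so its relation to the control drop was not tested.

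**Figure D5:**
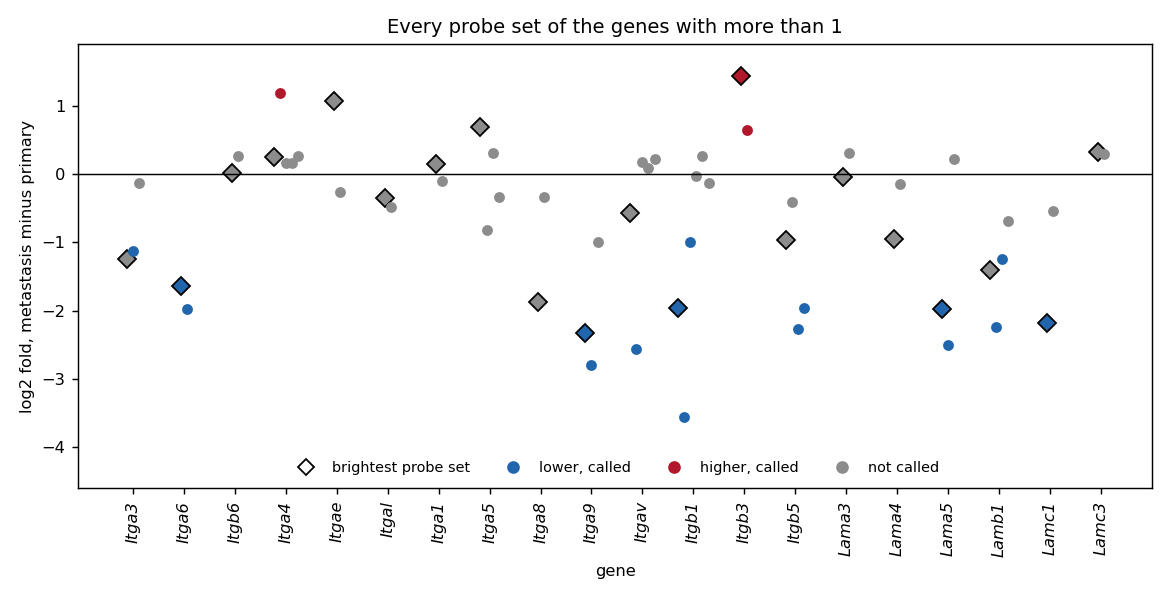
Log2 fold of every probe set (y axis, bone metastasis minus primary tumour) of the 20 chains that have more than 1 (x axis). Diamonds with a black edge are the brightest probe set, blue points were called lower, red higher, and grey were not called. Every call of Itgb1, Itgav, Itgb5, Itga9, Lama5 and Lamb1 is on the lower side, and both probe sets of Itgb3 are on the higher side.

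Of 15 listed ligands of these integrins 14 were measured, and Spp1, osteopontin, had no probe set with its single symbol. Of the 14, 5 were called lower and 0 higher (limma), with a median log2 fold of -0.74. At an unadjusted p under 0.05, 7 were lower and 0 higher. Calls over all genes were 12.1% lower and 9.72% higher. Matrix genes kept in other lists were not counted here. Of these, Ibsp of 4 osteoblast markers (2.74, SE 0.42) and Comp of 7 cartilage markers (4.13, SE 0.40) were called higher, with 0 called lower in either list. Vcam1, the counter-receptor of Itga4 and Itga9, fell by 4.05 on the log2 scale (SE 0.70). Npnt, the nephronectin ligand of Itga8, fell by 3.38 (SE 0.61) and fibronectin, Fn1, by 1.77 (SE 0.36). Thbs1 fell by 2.58 (SE 0.70, adjusted p = 0.0309), in all 4 mice and without overlap. Fgg, a fibrinogen chain, lay at -0.88 (SE 0.24), with means of 4.88 and 3.99 under the array medians. Its groups overlapped, and in mouse 3 the metastasis was higher (4.56 against 4.44).

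Of 26 adhesion genes, 8 were called lower and 3 higher, against 12.1% and 9.72% of all genes. The median log2 fold of the 26 was -0.77. The list holds genes of the adhesion complex inside the cell and the membrane tetraspanins Cd9, Cd81 and Cd151, of which Cd9 and Cd81 were called lower. Zyx, a focal adhesion protein of strained actin, fell by 1.47 (SE 0.15, adjusted p = 0.000906), Itgb1bp1, which binds the tail of Itgb1, fell by 1.89 (SE 0.26), the tetraspanin Cd9 by 2.64 (SE 0.46) and the actin crosslinker Actn4 by 0.71 (SE 0.14). Plec, Ptk2b, a kinase related to focal adhesion kinase, and Lims2 rose, by 0.90 (SE 0.27), 0.88 (SE 0.26) and 0.86 (SE 0.25). These calls were close to the threshold (adjusted p = 0.0466, 0.0462 and 0.0418, limma), and the groups overlapped for Plec and Ptk2b. Their stability in the alternative settings was not looked at. Of 14 basement membrane genes, 2 were called lower and 1 higher, with a median of -0.13. These counts are near the shares over all genes and do not set this list apart. Agrn, a proteoglycan that binds laminin, fell by 2.03 (SE 0.34) and Col4a2 by 1.14 (SE 0.34), while Hspg2, perlecan, rose by 0.69 (SE 0.18).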

How the data were processed

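Total RNA of 8 samples was labelled with biotin in 2 cycles of amplification and hybridised to 1-colour arrays, per the labels' protocols. The deposited values were log2 signals, 1 for each of 45101 probe sets and array, made by the authors with RMA (background correction, quantile normalization and a summary of each probe set), per the submitters' processing notes. The RMA version is not given in the sources used. The array medians were 5.16 to 5.17 in primary tumours and 5.23 to 5.42 in metastases. Precision is limited by the number of arrays, with a median SE of 0.23 for a fold. Scanner files were not used here.

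Control probe sets (64) and probe sets with several symbols (932) or none listed (9160) were left out of the tests. Each gene was represented by the probe set with the highest mean. The symbols of 34 of 34 members matched the gene table of GRCm38.p6 through their gene IDs. The 2 groups were compared by limma 3.58.1 (lmFit and eBayes, R 4.3.3) on the deposited values, two-sided, with Benjamini-Hochberg adjustment over all 18193 genes, or over 34945 probe sets, and a threshold of 0.05. The fit was tested on simulated data. Figures and counts were made with Python 3.11.15, pandas 2.3.3 and matplotlib 3.10.9. Promoter sequences were RefSeq's.

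Both arrays of a number came from 1 mouse per the series' design text, so the mouse pairs them. Their deviations from the group means correlated across probe sets at 0.16, -0.015, 0.034 and -0.10. The fit with the mouse as a block was an alternative.

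The members and lists were chosen with earlier results of these data known. Full values are given for chains past the threshold with at least a 2-fold difference in the same direction in all 4 mice and for their partner chains, and the genes of other lists are those with the lowest adjusted p, at most 4 in a direction. Values of other chains, of the ligand Thbs1 and of marker genes were added after they were seen. Protein sequences were not used here.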

Additional observations from a re-analysis of the deposited data

Results flagged for a closer look

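Of the 68 sets of 4 arrays, 34 chains in 2 groups, 3 held a sample far from the others by Dixon's 95% limit for the gap over the range. Chance alone gives about 1 in 20 such sets. Itgae in the primary tumour of mouse 1 had a log2 signal of 7.80, where the nearest primary array had 6.13. Itgb8 in the primary tumour of mouse 1 had 4.54 against 3.56 for the nearest. Lama5 in the metastasis of mouse 1 had 5.80, where the nearest metastasis array had 7.31, and Krt8, at 7.34, was also lowest on that array, whereas Cldn4, at 7.46, was the highest of the metastasis arrays there. All of these samples came from mouse 1, and the reason was not tested.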

How the results depend on the processing

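In 24 alternative settings of the gene fit, Itga6, Itga9 and Lama5 kept their direction and their call in all, and the direction of the other called chains was kept as well. The count of chains called lower was 13 with the mean of all probe sets and 5 without metastasis arrays 1 and 3, against 8. The count called higher was 0 without those arrays, against 3. At an unadjusted p under 0.05 (limma) 5 chains were higher without those arrays, against 4 with all arrays. Leaving out 1 array or 1 mouse gave 3 to 11 chains called lower and 0 to 3 higher (3 to 6 at an unadjusted p under 0.05), and over all genes 708 to 2719 lower and 697 to 2119 higher, against 2207 and 1768. The lowest counts over all genes and of lower chains came without mouse 3. The filter to genes above the median brightness left 1135 genes called higher. With the replicate block (mouse) 9 chains were called lower and 3 higher, with Itgb2 and Itgb8 gained and Lama2 lost, and 19 probe sets were called lower and 5 higher, the same counts as without it. It changed no other call of a chain. Without metastasis arrays 3 and 4, 7 chains were called lower and 3 higher. Itgam, Itgax, Itga7 and Itgb3 were then lost, and Itga3, Itga4 and Itgb8 gained. In that setting the fold of Itga4 was 0.98 (adjusted p = 0.0207, limma) and that of Itgax -0.73 (adjusted p = 0.181). The difference in control drop, 3.84 for actin and 3.07 for Gapdh, had an exact permutation p of 0.125 when arrays were exchanged within mice, an alternative chosen after seeing the data. The sign of 4 named folds that were not called turned: Itga4 to -0.16 without mouse 2 and -0.017 without metastasis array 2 (range -0.16 to 0.57 over arrays or mice left out), Itgb7 to -0.10 and -0.062 under these (range -0.10 to 0.38), Itgal to 0.0015 with quantile normalization and 0.057 without metastasis arrays 1 and 3, and Itga5 to -0.041 with the mean of all probe sets and -0.82 with the most variable. Of 157 settings of the 7 chains given by range, 35 had the sign turned. The cause of these changes was not tested. Folds of chains under the array median are not exact.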
